A study of Mus musculus with 12 samples.

Results

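Enzymes that conjugate, hydrolyse or oxidise drugs, hormones and lipids outside the cytochrome P450 system were compared between liver and primary hepatocytes of JNKΔhepa and WT mice. The genes were those whose symbol in the array annotation begins with Sult, Ugt, Ces, Fmo, Aox or Ephx followed by a family number, apart from Sult1a1, with the brightest single-symbol probe set standing for each gene. They numbered 51 of the 18820 genes tested: 14 sulfotransferases, 9 UDP-glucuronosyltransferases, 16 carboxylesterases, 4 flavin-containing monooxygenases, 4 aldehyde oxidases and 4 epoxide hydrolases. Genes entered by name and not by measured values, whereas the probe set of each was picked by its mean brightness over all arrays. The members were chosen with earlier results of these data known.

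JNKΔhepa mice carried floxed Jnk1 (Mapk8) alleles deleted by Albf-Cre, a recombinase under the albumin promoter and alpha-fetoprotein enhancer, and lacked Jnk2 (Mapk9) in every cell (Jnk2-/-). WT mice were Jnk1f/fJnk2+/+ littermates. All were males of the C57BL/6 background, 7 to 8 weeks old, kept on standard chow. Each of 6 mice, 3 per genotype, gave a liver and a hepatocyte sample, so the 4 groups, JNKΔhepa liver, WT liver, JNKΔhepa hepatocytes and WT hepatocytes, held 3 arrays each. Jnk1 was targeted only where Albf-Cre was active, and whether that included liver cells other than hepatocytes is not given here. The loss of JNK2 was not limited to hepatocytes.

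Sulfotransferases move a sulfonate group from the donor PAPS to phenols, steroids and bile acids in the cytosol. UDP-glucuronosyltransferases attach glucuronic acid in the endoplasmic reticulum, and both reactions make a compound water-soluble enough for bile or urine. Carboxylesterases of the same compartment cleave ester and amide bonds of drugs and acylglycerols, flavin-containing monooxygenases oxidise nitrogen and sulfur atoms, aldehyde oxidases use a molybdenum cofactor to oxidise aldehydes and N-heterocycles, and epoxide hydrolases open reactive epoxides to diols. Hepatocytes are a main site of these reactions. JNK kinases phosphorylate Jun, a subunit of the transcription factor AP-1, and for this reason the promoters of the genes were searched for the AP-1 motif.

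A promoter window of RefSeq (GRCm38.p6), reaching from 250 bases before to 50 bases after the annotated start, was at hand for 44 of the 51 genes. The AP-1 motif was searched in the loose form TGANTCA, with any middle base allowed, which reads the same on both strands but for that base. These letters occurred in 11 of the 44 windows (25%), against 8.97% of 27025 genes with such windows. Forms with each middle base were not counted apart. The 11 were Aox1, Aox4, Ephx3, Sult1b1, Sult1c1, Sult2a8, Sult2b1, Ugt2b1, Ugt2b35, Ugt2b37 and Ugt2b38. The half-site GTTAAT of the hepatocyte factor HNF1, searched on both strands, occurred in 7 of 44 windows (15.91%), against 8.24% of genes. A match describes letters and is not evidence of binding, and neighbouring paralogs share sequence, so the windows are not independent. The whole windows of Ces1e, on the minus strand at chr8:93229570-93229869, and of Fmo4, on the minus strand at chr1:162812500-162812799, are shown because these were the genes called in the genotype comparisons below. Neither motif occurred in them. The window of Ugt2b37, on the minus strand at chr5:87254739-87255038, is shown because this gene had the largest genotype difference of its family and an AP-1 match whose first base lies 180 bases before the start. Bases of the AP-1 match are in capitals.
Ces1e: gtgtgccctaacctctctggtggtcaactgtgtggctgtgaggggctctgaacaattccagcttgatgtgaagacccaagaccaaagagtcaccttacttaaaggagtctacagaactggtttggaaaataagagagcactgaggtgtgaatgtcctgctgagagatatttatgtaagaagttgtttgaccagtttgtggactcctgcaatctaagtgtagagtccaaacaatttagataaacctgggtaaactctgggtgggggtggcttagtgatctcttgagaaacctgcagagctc
Fmo4: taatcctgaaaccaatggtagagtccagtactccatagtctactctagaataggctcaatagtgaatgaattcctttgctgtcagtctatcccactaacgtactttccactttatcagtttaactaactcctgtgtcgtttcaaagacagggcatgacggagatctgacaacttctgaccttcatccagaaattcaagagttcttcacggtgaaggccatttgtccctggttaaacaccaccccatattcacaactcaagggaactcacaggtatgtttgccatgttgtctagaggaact
Ugt2b37: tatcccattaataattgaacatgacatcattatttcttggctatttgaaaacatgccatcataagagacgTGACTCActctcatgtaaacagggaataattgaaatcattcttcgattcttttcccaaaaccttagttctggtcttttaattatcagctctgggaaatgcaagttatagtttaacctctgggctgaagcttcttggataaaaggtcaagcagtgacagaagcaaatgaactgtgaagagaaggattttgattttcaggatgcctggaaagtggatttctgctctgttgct

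Stretches around the AP-1 match are given for the other members of the Ugt2b cluster that held one and for Aox1, so that they can be set beside Ugt2b37. The middle base was C in Ugt2b37 and Aox1, A in Ugt2b1 and Ugt2b38, and T in Ugt2b35. The matches began 221 bases before the start in Ugt2b1 (minus strand, chr5:86926693-86926749), 246 bases before it in Ugt2b35 (plus strand, chr5:87000610-87000645), 166 bases before it in Ugt2b38 (minus strand, chr5:87424338-87424394) and 220 bases before it in Aox1 (plus strand, chr1:58029724-58029780).
Ugt2b1: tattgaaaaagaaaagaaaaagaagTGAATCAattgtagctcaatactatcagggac
Ugt2b35: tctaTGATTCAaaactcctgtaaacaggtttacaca
Ugt2b38: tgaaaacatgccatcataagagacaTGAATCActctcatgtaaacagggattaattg
Aox1: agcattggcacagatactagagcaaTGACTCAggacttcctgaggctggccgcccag

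Values are log2 expression from RMA, and a reading below the median of all probe sets of its array is called dim. That median was 4.09 to 4.12 for the liver arrays and 3.22 to 3.28 for the hepatocyte arrays, and arrays of a group correlated at r = 0.987 to 0.993. Mapk9 read 2.33 to 3.02 in JNKΔhepa livers, against 8.59 to 8.69 in WT livers, and 2.29 to 2.62 in JNKΔhepa hepatocytes, against 7.74 to 8.10 in WT hepatocytes. Mapk8 read 5.93 to 6.07 in JNKΔhepa livers, against 6.37 to 6.40 in WT livers, and 4.95 to 5.01 in JNKΔhepa hepatocytes, against 5.51 to 5.66 in WT hepatocytes. The summed signal of 9 hepatocyte markers lay between 15.53 and 15.62 on the liver arrays and between 15.32 and 15.49 on the hepatocyte arrays. Every hepatocyte array was thus below every liver array. Summed Kupffer cell and macrophage markers (8 genes) were at 8.21 to 8.81 in JNKΔhepa hepatocytes and 8.77 to 9.55 in WT hepatocytes, against 10.96 to 11.15 in JNKΔhepa livers and 10.93 to 11.46 in WT livers, and summed endothelial markers (8 genes) were at 9.67 to 10.17 in JNKΔhepa hepatocytes and 10.11 to 10.48 in WT hepatocytes, against 11.80 to 11.93 in JNKΔhepa livers and 11.66 to 11.85 in WT livers. On the deposited values, whose array medians differ between the tissues, the hepatocyte preparations thus held less macrophage and endothelial signal than whole liver. The JNKΔhepa preparations ranged lower than the WT ones for both, with overlap. In bulk samples of this kind, fewer cells of a type and less RNA per cell cannot be told apart.

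Of the 51 genes, 34 read above the array median on all 12 arrays and 16 were dim on all 12. Ces2b lay between, dim on 8 arrays. The 16 genes dim throughout included the estrogen sulfotransferase Sult1e1 and Sult2b1, which sulfates cholesterol, together with 7 more sulfotransferases, Aox2, Aox4, Ces1a, Ces2f, Ces5a, Ephx3 and Ephx4, and the sizes of their differences are not exact. All 9 Ugt genes and all 4 Fmo genes were above the median everywhere.

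The first comparison asked how deletion of Jnk1 by Albf-Cre and loss of JNK2 in all cells changed these enzymes in whole liver. Of the 51 genes, 2 rose in JNKΔhepa livers and 0 fell at a Benjamini-Hochberg adjusted p under 0.05 in limma: the carboxylesterase Ces1e and the flavin-containing monooxygenase Fmo4. That is 3.92% of the genes, against 0.925% of all genes tested, and 10 members (19.6%) had an unadjusted p under 0.05, against 12.5% of all genes. Members lay on both sides of 0, with 23 above and 28 below and a median of -0.03, against 0.02 for all genes. The JNKΔhepa arrays lay all above the WT arrays for 6 members (11.8%), against 12.9% of all genes, and all below for 5 members (9.8%), against 7.57% of all genes. Both shares are close to those of all genes.

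In hepatocytes 0 of the 51 genes passed the same test, against 0.84% of all genes tested, while 8 members (15.7%) had an unadjusted p under 0.05, against 12.6% of all genes. Of the 51 genes, 36 lay above 0 and 15 below, with a median of 0.05, against -0.0018 for all genes. The JNKΔhepa arrays lay all above the WT arrays for 6 members (11.8%), against 7.36% of all genes, and all below for 2 (3.92%), against 7.32%. Ces1e, Fmo4 and Aox1 had all JNKΔhepa arrays above WT in both tissues, and Fmo5 had them all below WT in both. The share of all genes with such an order in both tissues was not counted, so these genes are listed without a comparison. The difference of the genotype effect between the tissues passed for 0 members, against 0.0106% of all genes. It had an unadjusted p under 0.05 for 5 members (9.8%), against 7.22% of all genes.

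**Figure D1:**
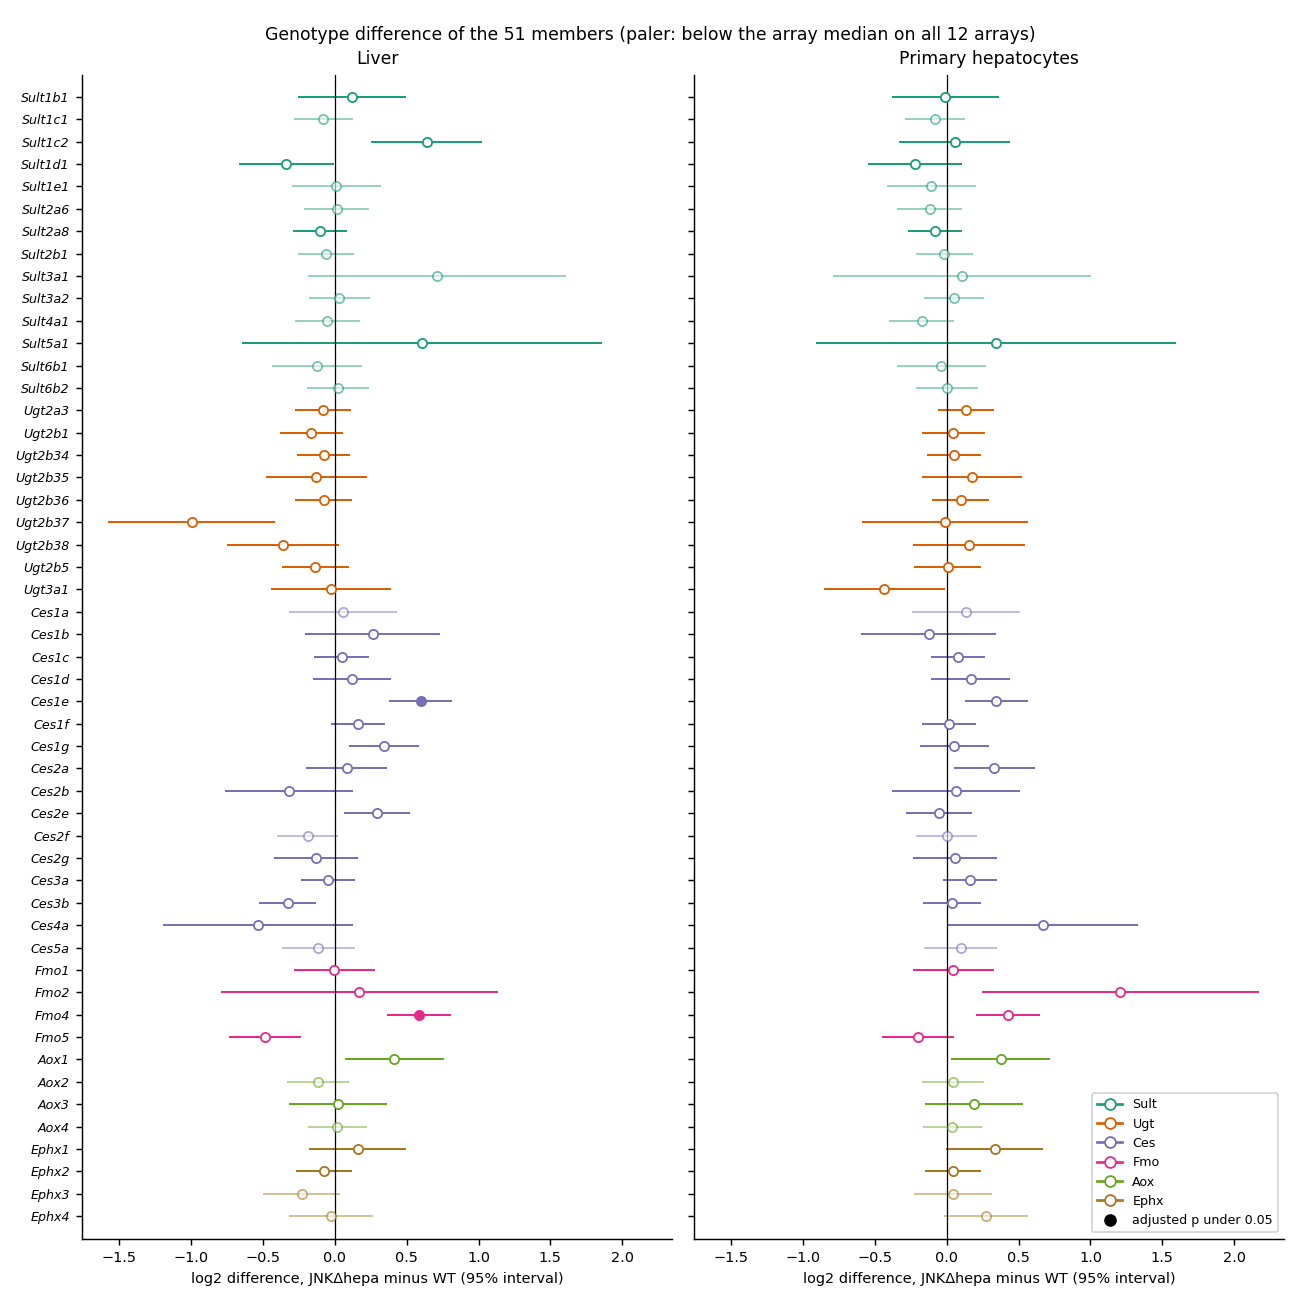
The x axis gives the log2 difference, JNKΔhepa minus WT, of each of the 51 genes in liver (left) and primary hepatocytes (right), with its 95% interval from limma and colour by family. Filled circles mark adjusted p under 0.05, and paler marks are genes dim on all 12 arrays. The filled circles are Ces1e and Fmo4 in liver, and there are 0 in hepatocytes.

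Ces1e, known as egasyn, holds beta-glucuronidase in the endoplasmic reticulum and hydrolyses esters. It read 9.32, 9.30 and 9.23 in JNKΔhepa livers, against 8.45, 8.78 and 8.83 in WT livers. Readings were 9.20, 9.06 and 9.12 in JNKΔhepa hepatocytes, against 8.83, 8.76 and 8.75 in WT hepatocytes. The groups did not overlap in either tissue, and the JNKΔhepa livers lay close together while WT liver 1 was the lowest of its group. In liver Ces1e rose by 0.60 on the log2 scale (1.51-fold, SE 0.0986, limma adjusted p = 0.0118). In hepatocytes the difference was 0.34 (1.27-fold, SE 0.0986, limma adjusted p = 0.143), which missed the threshold, and the 2 effects were not shown to differ (interaction -0.25, 95% interval -0.55 to 0.05). The liver call was lost without JNKΔhepa liver 1 (limma adjusted p = 0.0594) and where liver was fitted alone (limma adjusted p = 0.0691). Gusb, the beta-glucuronidase that Ces1e retains, differed by 0.03 in liver and 0.15 in hepatocytes and passed in neither.

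Fmo4 belongs to the same microsomal family as the drug oxidase Fmo1. It read 7.23, 7.26 and 7.32 in JNKΔhepa livers, against 6.68, 6.63 and 6.74 in WT livers. Among hepatocyte samples the readings were 6.37, 6.77 and 6.68 in JNKΔhepa mice, against 6.25, 6.15 and 6.13 in WT mice. All 3 JNKΔhepa arrays were above all WT arrays in each tissue, with the narrowest gap at JNKΔhepa hepatocytes 1. Fmo4 rose by 0.59 in liver (SE 0.0997, limma adjusted p = 0.0137). The hepatocyte difference of 0.43 (1.35-fold, SE 0.0997) had the smallest p of the members in that tissue but stayed above the threshold (limma adjusted p = 0.0691). The liver call was lost without WT liver 1 (limma adjusted p = 0.0598), WT liver 2 (0.0626), JNKΔhepa liver 1 (0.0531) or JNKΔhepa liver 3 (0.0658), with differences of 0.56 to 0.62 throughout.

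Fmo5, which inserts oxygen beside carbonyl groups and is the brightest Fmo probe set here, had the opposite direction. It read 11.20, 11.12 and 11.01 in JNKΔhepa livers, against 11.74, 11.49 and 11.57 in WT livers. The JNKΔhepa hepatocytes read 10.74, 10.81 and 10.76, against 10.81, 11.23 and 10.86 in WT hepatocytes. JNKΔhepa and WT readings were apart in both tissues, although in hepatocytes JNKΔhepa 2 and WT 1 were almost level. The differences were -0.49 in liver (SE 0.113, limma adjusted p = 0.0676) and -0.20 in hepatocytes (SE 0.113, limma adjusted p = 0.527), and neither passed. Of the other Fmo genes, Fmo1, a broad-specificity drug oxidase, differed by -0.00 in liver (95% interval -0.28 to 0.27) and by 0.04 in hepatocytes (-0.23 to 0.32).

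**Figure D2:**
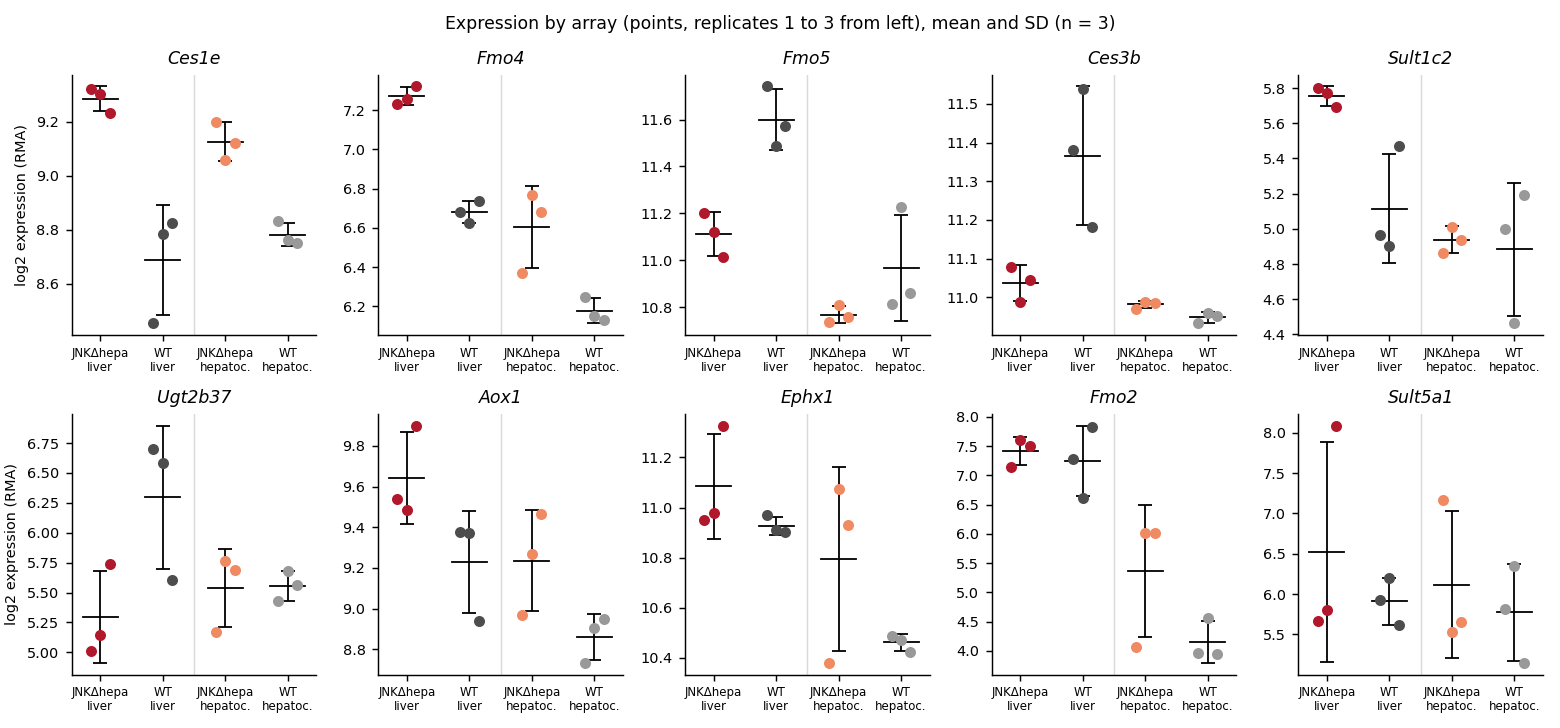
Log2 expression of 10 of the genes by array, with points for replicates 1 to 3 of JNKΔhepa liver, WT liver, JNKΔhepa hepatocytes and WT hepatocytes from left, and bars for the mean and SD (n = 3); each panel has its own y axis, which does not start at 0. Ces1e and Fmo4 have all JNKΔhepa points above the WT points in both tissues, Fmo5 has them below, and Sult5a1 and Fmo2 have single arrays far from their group.

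The 16 carboxylesterases, Ces1e included, went both ways in liver: 9 lay above 0 and 7 below, with a median of 0.05. All 16 genes lie on chromosome 8 in the RefSeq annotation, mostly as tandem copies, so that a probe set may read a neighbouring copy, and this was not tested. Ces1c, an esterase that mice secrete into plasma and the brightest Ces probe set, read 11.94, 12.14 and 11.94 in JNKΔhepa livers, against 11.94, 11.94 and 12.001 in WT livers. In hepatocytes it read 11.79, 11.97 and 11.89 in JNKΔhepa mice, against 11.74, 11.83 and 11.86 in WT mice. The groups overlapped, and the differences were 0.05 (95% interval -0.14 to 0.23) in liver and 0.08 (-0.11 to 0.26) in hepatocytes.

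Ces3b, named like the next carboxylesterases after its values were seen, read 11.08, 10.99 and 11.05 in JNKΔhepa livers, against 11.38, 11.54 and 11.18 in WT livers. The difference of -0.33 (SE 0.0896) did not pass (limma adjusted p = 0.121). Among hepatocyte samples the readings were 10.97, 10.99 and 10.99 in JNKΔhepa mice, against 10.93, 10.96 and 10.95 in WT mice, a difference of 0.03. Those 6 hepatocyte arrays were thus almost level, and the livers of the 2 genotypes were apart. Ces1g, a hepatic lipid esterase, differed by 0.34 in liver (limma adjusted p = 0.191) and 0.05 in hepatocytes, and Ces2e by 0.30 in liver (limma adjusted p = 0.233) and -0.06 in hepatocytes. The JNKΔhepa livers were all above the WT livers for both.

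Ces2a had the same order in hepatocytes, with 8.82, 8.95 and 9.03 in JNKΔhepa mice, against 8.70, 8.52 and 8.59 in WT mice (difference 0.33, limma adjusted p = 0.293). Ces4a read 5.76, 5.74 and 5.77 in JNKΔhepa hepatocytes, against 4.76, 5.83 and 4.67 in WT hepatocytes. WT hepatocytes 2 stood with the JNKΔhepa arrays and apart from the other two WT arrays. In liver it read 5.13, 4.41 and 4.69 in JNKΔhepa mice, against 5.11, 5.88 and 4.84 in WT mice, and the groups overlapped. The difference was -0.53 in liver (95% interval -1.19 to 0.12, limma adjusted p = 0.519). It was 0.67 in hepatocytes (limma adjusted p = 0.386), and neither passed. The interaction of 1.21 (95% interval 0.28 to 2.13) did not pass over all genes (limma adjusted p = 0.596).

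All 9 UDP-glucuronosyltransferase genes measured lay below 0 in liver, with a median of -0.13 and Ugt3a1 nearest to 0, and 0 passed. The count was 8 of 9 without JNKΔhepa liver 3, where Ugt3a1 was at 0.21, and 7 of 9 without WT liver 2, where Ugt3a1 (0.02) and Ugt2b35 lay above 0. In hepatocytes 7 of 9 lay above 0, with a median of 0.05. Of these genes, 8 lie on chromosome 5 in the RefSeq annotation, and as close paralogs they are not independent readings. Ugt2b1, of the subfamily that glucuronidates steroids, bile acids and drugs, is the brightest Ugt probe set. It read 11.51, 11.38 and 11.61 in JNKΔhepa livers, against 11.69, 11.76 and 11.54 in WT livers, and the difference of -0.16 (95% interval -0.37 to 0.05) was within the overlap of the groups. The JNKΔhepa hepatocytes read 11.48, 11.54 and 11.45, against 11.31, 11.59 and 11.44 in WT hepatocytes.

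Ugt2b37, whose promoter window is shown above, read 5.01, 5.15 and 5.74 in JNKΔhepa livers, against 6.70, 6.58 and 5.61 in WT livers. JNKΔhepa liver 3 and WT liver 3 overlapped, and the other arrays of the groups were more than 1 log2 unit apart. The difference was -0.998 (95% interval -1.57 to -0.43, limma adjusted p = 0.112). Readings were 5.17, 5.77 and 5.69 in JNKΔhepa hepatocytes, against 5.43, 5.68 and 5.56 in WT hepatocytes, a difference of -0.01. Ugt2b38, a gene of the same cluster, differed by -0.36 in liver (95% interval -0.75 to 0.02) and 0.15 in hepatocytes. A link between the AP-1 matches and the genotype differences was not tested. Ugt3a1, whose human counterpart uses UDP-N-acetylglucosamine, differed by -0.03 in liver and -0.44 in hepatocytes (limma adjusted p = 0.371).

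**Figure D3:**
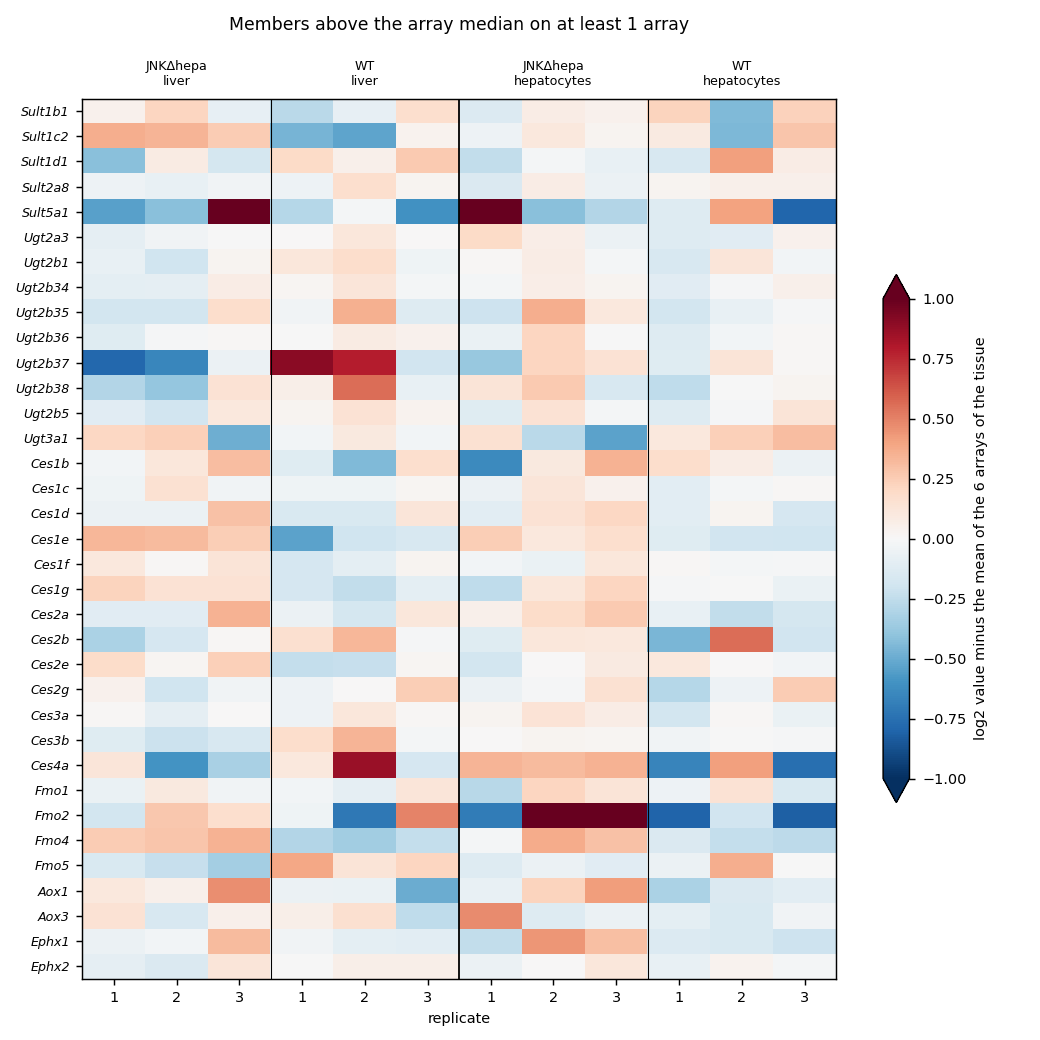
Each row is a gene that was above the array median on at least 1 array, each column an array, and the colour gives the log2 value minus the mean of the 6 arrays of the same tissue, cut at 1 on either side. Ces1e and Fmo4 are red in all 3 JNKΔhepa livers and blue or pale in WT livers, Ugt2b37 is blue in JNKΔhepa livers 1 and 2 and red in WT livers 1 and 2, and most other rows show no block by genotype.

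Of the 14 sulfotransferases, 5 read above the median on all arrays, Sult1b1, Sult1c2, Sult1d1, Sult2a8 and Sult5a1, and 0 passed in either genotype comparison. Sult2a8, a bile acid sulfotransferase of mouse liver and the brightest Sult probe set, read 10.55, 10.53 and 10.57 in JNKΔhepa livers, against 10.55, 10.77 and 10.63 in WT livers. In hepatocytes it read 10.13, 10.35 and 10.21 in JNKΔhepa mice, against 10.29, 10.32 and 10.32 in WT mice. The groups overlapped, and the differences were -0.10 (95% interval -0.28 to 0.08) and -0.08 (-0.26 to 0.10). Sult1c2 read 5.80, 5.77 and 5.69 in JNKΔhepa livers, against 4.97, 4.91 and 5.47 in WT livers. The groups did not overlap, WT liver 3 came nearest, and the difference of 0.64 did not pass (SE 0.174, limma adjusted p = 0.123). The JNKΔhepa hepatocytes read 4.86, 5.01 and 4.94, against 4.998, 4.46 and 5.19 in WT hepatocytes.

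Sult1d1, which sulfates catecholamines and other phenols, differed by -0.34 in liver (limma adjusted p = 0.374) and -0.22 in hepatocytes. Sult1b1, which acts on thyroid hormones and phenols, differed by 0.12 in liver and -0.01 in hepatocytes. Sult5a1, named after its values were seen, read 5.67, 5.80 and 8.09 in JNKΔhepa livers, against 5.93, 6.20 and 5.61 in WT livers. Readings were 7.17, 5.53 and 5.65 in JNKΔhepa hepatocytes, against 5.82, 6.35 and 5.15 in WT hepatocytes. The high readings were JNKΔhepa liver 3 and JNKΔhepa hepatocytes 1, which came from different mice, and the differences of 0.61 (95% interval -0.64 to 1.85) and 0.34 (-0.90 to 1.59) did not pass.

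The aldehyde oxidase Aox1 read 9.54, 9.48 and 9.90 in JNKΔhepa livers, against 9.37, 9.37 and 8.94 in WT livers. Among hepatocyte samples the readings were 8.97, 9.27 and 9.47 in JNKΔhepa mice, against 8.73, 8.90 and 8.95 in WT mice. The groups did not overlap in either tissue, but the gap was narrow in both. The differences of 0.41 (SE 0.155, limma adjusted p = 0.277) and 0.37 (SE 0.155, limma adjusted p = 0.339) were alike in size and did not pass. Aox3, the main aldehyde oxidase of mouse liver, read 11.17, 10.86 and 11.08 in JNKΔhepa livers, against 11.08, 11.19 and 10.77 in WT livers. In hepatocytes it read 11.42, 10.82 and 10.88 in JNKΔhepa mice, against 10.85, 10.79 and 10.91 in WT mice. Apart from JNKΔhepa hepatocytes 1, which was highest, the hepatocyte arrays were close together, and the differences were 0.02 and 0.19.

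Ephx1, the microsomal epoxide hydrolase, read 10.95, 10.98 and 11.33 in JNKΔhepa livers, against 10.97, 10.91 and 10.90 in WT livers. Readings were 10.38, 11.07 and 10.93 in JNKΔhepa hepatocytes, against 10.49, 10.47 and 10.42 in WT hepatocytes. JNKΔhepa hepatocytes 1 was the lowest of the 6 and the other two JNKΔhepa arrays the highest, and the difference of 0.33 (SE 0.152) did not pass (limma adjusted p = 0.391). Ephx2, the soluble epoxide hydrolase that degrades epoxy fatty acids, differed by -0.08 in liver (95% interval -0.27 to 0.11) and 0.04 in hepatocytes (-0.15 to 0.23).

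Fmo2, the main flavin-containing monooxygenase of lung in many mammals, was named for the genotype comparison after its values were seen. It read 4.06, 6.01 and 6.02 in JNKΔhepa hepatocytes, against 3.96, 4.57 and 3.94 in WT hepatocytes. JNKΔhepa hepatocytes 1 lay among the WT arrays, and the other two were higher. The difference of 1.21 (SE 0.442, 95% interval 0.25 to 2.16) did not pass (limma adjusted p = 0.269). Without JNKΔhepa hepatocytes 1, 3 members passed in hepatocytes, Ephx1, Fmo2 and Fmo4. Over all genes 315 then passed, against 158 with all arrays. In liver Fmo2 read 7.15, 7.60 and 7.50 in JNKΔhepa mice, against 7.29, 6.62 and 7.83 in WT mice.

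The intervals show how large a genotype difference the values leave room for. Of the 34 members above the median on all arrays, Ces1e and Fmo4 among them, 19 in liver and 19 in hepatocytes had a 95% interval of the genotype difference within 0.5 of 0. Within 1 of 0, a 2-fold difference, lay 29 in liver and 31 in hepatocytes. Of all 51 members, the measured difference was under 0.2 in size for 34 in liver and 40 in hepatocytes.

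The next comparison set primary hepatocytes against whole liver, averaged over the genotypes. The deposited values of the tissues have different distributions, with a median difference of -0.58 over all genes, so a difference is read relative to that shift. On the deposited values 39 members (76.5%) were lower in hepatocytes and 0 higher, against 91.5% and 0.776% of all genes and 92.3% called in either direction. The members' median was -0.33, and 41 of 51 lay above the median of all genes. With all arrays quantile-normalized together, 12 members (23.5%) were higher in hepatocytes, against 23.1% of all genes, and 4 (7.84%) were lower, against 22% of all genes. With each array centred on its median instead, 42 members (82.4%) were higher, against 59.6% of all genes, and 1 member (1.96%), Fmo2, was lower, against 12.5%. That scaling put the median of all genes at 0.27 and that of the members at 0.52. The direction of most members between the tissues therefore turned with the scaling, and Fmo2 was called lower under all 3. In the joint normalization the 12 were 8 carboxylesterases (Ces1e, Ces1f, Ces2a, Ces2b, Ces2e, Ces2f, Ces2g and Ces4a), Ugt2b38, and the dim Aox2, Sult2b1 and Sult4a1. Of these carboxylesterases, Ces2f was also dim on all 12 arrays, and Ces2b was dim on 8, among them all liver arrays. The 4 were Fmo2, Sult1d1 and the dim Ephx3 and Sult1c1.

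Fmo2 had the largest difference between the tissues among the members on the deposited values. The hepatocyte arrays of both genotypes, 3.94 to 6.02, lay below all liver arrays, 6.62 to 7.83. The difference, hepatocytes minus liver, was -2.57 on the deposited values (SE 0.312, limma adjusted p = 4.42e-06) and -1.85 with all arrays normalized together (limma adjusted p = 0.000343). Each array centred on its median gave -1.72 (limma adjusted p = 0.000294). On the deposited values, summed markers of Kupffer cells, endothelium and stellate cells were also lower in hepatocytes than in liver. Their part in the Fmo2 difference was not tested. Stellate markers (9 genes) summed to 8.15 to 8.75 in JNKΔhepa hepatocytes and 8.76 to 9.23 in WT hepatocytes. In whole liver the sums were 11.15 to 11.33 in JNKΔhepa mice and 11.41 to 11.48 in WT mice. All JNKΔhepa sums thus lay below all WT sums in each tissue, by a narrow gap in hepatocytes.

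Sult1d1 read 9.33 to 9.56 in JNKΔhepa hepatocytes and 9.42 to 9.99 in WT hepatocytes, against 10.10 to 10.60 in JNKΔhepa livers and 10.57 to 10.78 in WT livers. The difference was -0.93 on the deposited values (limma adjusted p = 2.22e-06) and -0.49 with all arrays normalized together (limma adjusted p = 0.00254). On the deposited values all hepatocyte arrays were below all liver arrays. With each array centred on its median the difference was -0.08 and the call was lost (limma adjusted p = 0.498). The other named differences, -0.995 for Ephx3, -0.75 for Ces5a and -0.69 for Ces1a on the deposited values, belong to genes dim on all arrays. After joint normalization Ephx3 was lower (-0.47) and Ces5a (-0.03) and Ces1a (-0.05) were not called, and under centring none of the 3 was called, with Ephx3 at -0.14 (limma adjusted p = 0.165). Ces4a was the 1 member above 0 on the deposited values (0.41), and joint normalization gave 1.20 (limma adjusted p = 0.000862). On the deposited values its mean was higher in hepatocytes only in JNKΔhepa mice, at 5.76 against 4.74 in liver. In WT mice the means were 5.09 in hepatocytes and 5.28 in liver.

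**Figure D4:**
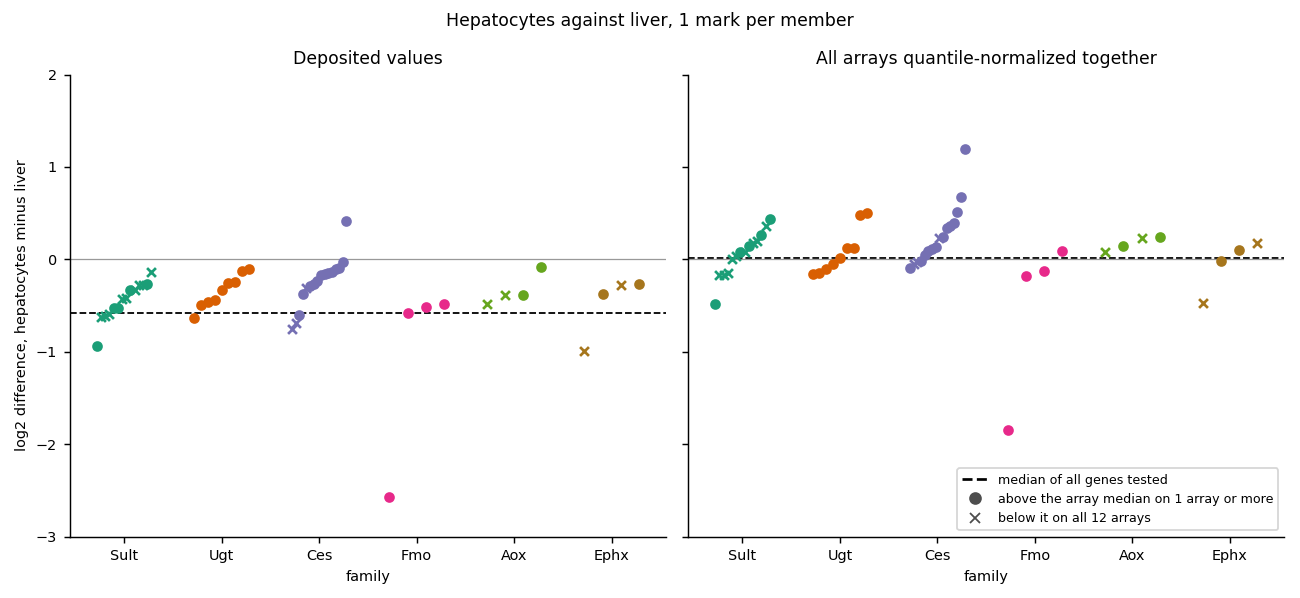
The y axis gives the log2 difference, hepatocytes minus liver, of the 51 genes by family on the deposited values (left) and with all arrays quantile-normalized together (right); the dashed line is the median of all genes tested, and crosses are genes dim on all 12 arrays. Fmo2 is the lowest mark in both panels (-2.57 and -1.85), and on the right most carboxylesterases lie above the line.

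Genes that supply or work beside these enzymes were read from a list of 27, of which 22 were measured, among them Ugdh, which makes UDP-glucuronic acid, Papss1 and Papss2, which make PAPS, the conjugate exporters Abcc2, Abcc3 and Abcc4, and the molybdenum cofactor enzymes Mocs1 and Mocs2. Of the 22, 1 rose in each tissue and 0 fell, against 0.925% of all genes called in liver and 0.84% in hepatocytes. It was the same gene in both, Tpmt, the methyltransferase that inactivates thiopurine drugs. The list was chosen with earlier results of these data known. Tpmt read 10.64, 10.69 and 10.68 in JNKΔhepa livers, against 10.06, 10.13 and 9.80 in WT livers. Among hepatocyte samples the readings were 10.21, 10.30 and 10.18 in JNKΔhepa mice, against 9.39, 9.31 and 9.43 in WT mice. The genotypes were well apart in both tissues, by 0.67 (1.59-fold, limma adjusted p = 0.00411) among the livers and by 0.85 (1.81-fold, limma adjusted p = 0.00066) among the hepatocyte samples, each with an SE of 0.0926. The calls remained when any 1 array was left out, with a highest adjusted p of 0.0205 in liver and 0.0059 in hepatocytes.

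Ugdh differed by -0.10 in liver and 0.00 in hepatocytes, Papss1 by -0.02 and 0.05, Papss2 by 0.08 and -0.08, and Abcc2 by -0.00 and 0.10. Abcc4, an efflux pump of the sinusoidal membrane, differed by 0.73 in liver (limma adjusted p = 0.286) and -0.10 in hepatocytes. Of 23 listed regulators of these enzymes 21 were measured, and 0 passed in either tissue. At the shares called among all genes, a list this short can hold 0 calls without differing from all genes. Nfe2l2 (NRF2), which drives many conjugating enzymes, differed by -0.01 in liver and -0.44 in hepatocytes (limma adjusted p = 0.0755), and the pregnane X receptor Nr1i2 by 0.00 and 0.20. Onecut1 (HNF6) differed by -1.13 in liver and 1.16 in hepatocytes (limma adjusted p = 0.177 and 0.163), and the difference between the tissues, 2.29, did not pass (limma adjusted p = 0.35). Of the 7 marker lists of liver cell types, 0 genes passed in either genotype comparison. That count does not show that cell content was equal. In hepatocytes the median genotype difference was -0.76 for Kupffer cell and macrophage markers, -0.54 for endothelial markers and -0.33 for stellate markers. It was 0.03 for hepatocyte, 0.06 for cholangiocyte, 0.05 for lymphocyte and 0.23 for erythroid markers.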

How the data were processed

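RNA of 12 samples was measured on 1 one-colour whole-transcript array each. The log2 values deposited by the authors come from RMA (background correction, quantile normalisation and a summary per probe set), per the submitters' processing notes. Which software and genome build were used is not given in the sources used here. From the array medians the tissues appear to have been normalised separately, and the array number limits the precision.

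The brightest probe set with 1 symbol stood for each of 18820 genes. Group means over 12 arrays were fitted with limma 3.58.1 (R 4.3.3), with two-sided tests and Benjamini-Hochberg adjustment over all genes, called at 0.05, without a filter. Only the liver genotype comparison was run on simulated data, with independent normal noise and differences larger than those of Ces1e and Fmo4. It does not cover smaller differences or the other comparisons. The members and gene lists were chosen with earlier results of these data known. Values of all arrays are given for genes called in a genotype comparison and for the brightest and the smallest-p member of each family. Between tissues, the 5 largest called differences per direction are named, and other members and list genes were singled out after their values were seen. Of the probe sets that fit the rule, 7 have several symbols and stayed out. The alternatives were joint quantile normalization, centring, a filter on dim probe sets, the mean of a gene's probe sets, each tissue alone, blocks for pairing and leaving out each array.

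The mouse pairs liver with hepatocytes, per the labels, and deviations of paired samples from their group means correlated at r = -0.0133 to 0.0982. Equal numbers in JNKΔhepa and WT groups belong to different mice (r = -0.12 to 0.112).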

Additional observations from a re-analysis of the deposited data

How the results depend on the processing

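In liver the count of members called was 2 on the deposited values, 1 with each tissue fitted alone and 0 with the label number as a fixed replicate block. Leaving out 1 array gave 0 to 5: 0 without JNKΔhepa liver 1, 1 without WT liver 1, WT liver 2 or JNKΔhepa liver 3, 4 without WT hepatocytes 2 (Fmo5 and Sult1c2 in addition) and 5 without WT liver 3 (Ces3b, Sult1c2 and Ugt2b37 in addition). The filter on dim probe sets, which kept 35 members and 10724 genes, added Fmo5. Over all genes the liver count was 174, with 213 under the filter, 127 with each tissue fitted alone and 29 under the fixed replicate block. It was 80 to 225 without single arrays, the lowest without JNKΔhepa liver 1. It was 173 without WT hepatocytes 2 and 208 without WT liver 3. Under the fixed replicate block the limma adjusted p was 0.135 for Ces1e and 0.0833 for Fmo4. In the genotype comparisons this block joins JNKΔhepa and WT mice that share only a label number, so it has no basis in the design.

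In hepatocytes the count of members was 0, 1 with the filter (Fmo4) and 0 to 3 without single arrays, the 3 without JNKΔhepa hepatocytes 1. Over all genes it was 158, with 224 under the filter, 77 for each tissue alone, 80 under the fixed replicate block and 61 to 387 without single arrays. The count was 387 without WT hepatocytes 2, 315 without JNKΔhepa hepatocytes 1 and 61 without JNKΔhepa hepatocytes 3. The interaction count was 2 over all genes (1 to 7 without single arrays) and 0 members under every alternative run. The mouse as a random replicate block (consensus correlation 0.0487) changed no member's call in the genotype comparisons.

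Between the tissues 39 members were called on the deposited values, 16 with joint quantile normalization, 25 with the filter and 37 to 40 without single arrays, and over all genes 17371, 8481, 10103 and 17152 to 17329. With each array centred on its median 43 members and 13565 genes were called, but 42 of the 43 were higher in hepatocytes, against 0 higher on the deposited values. There 10 of the 12 members not called on the deposited values were called, 11 of the 12 changed sign, and the calls of Ephx3 (-0.14) and Sult1d1 (-0.08) were lost. The differences of Ces5a (0.10) and Ces1a (0.17), both dim, turned positive. The causes were not tested, except that the filter tests fewer genes. Groups of 3 arrays, no detection calls and a possible signal of tandem paralogs in a probe set limit all values.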

Other observations

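Probe sets that carry several symbols were kept out of the tests above. One reads the shared Ugt1a cluster, whose products glucuronidate bilirubin and phenols. It read 10.13, 10.21 and 10.21 in JNKΔhepa livers, against 10.21, 10.10 and 10.37 in WT livers. In hepatocytes it read 9.66, 9.79 and 9.92 in JNKΔhepa mice, against 9.86, 9.84 and 9.97 in WT mice. The groups overlapped in both tissues, and the differences were -0.04 (SE 0.0937) and -0.10 (SE 0.0937). The 3 probe sets shared by Ugt3a1 and Ugt3a2 differed by -0.03 to 0.05 between the livers and by -0.16 to -0.01 between the hepatocyte samples. The 2 probe sets shared by Sult2a genes, which sulfate bile acids and steroids, and the 1 shared by Ugt2a1 and Ugt2a2 were dim on all arrays.

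Sult3a1, an amine sulfotransferase that is higher in female than male mouse liver, was dim on all arrays. It read 1.76, 3.85 and 1.69 in JNKΔhepa livers, against 1.71, 1.87 and 1.58 in WT livers. JNKΔhepa liver 2 stood apart, and the hepatocytes of the same mouse read 1.30. This gene was singled out after its values were seen.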
